A study of Homo sapiens with 30 samples.

Results

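The nuclear-encoded subunits of the respiratory chain and ATP synthase were followed by RNA sequencing in A549, a human cell line grown from a lung adenocarcinoma. The members are the protein-coding genes whose symbol names a subunit of complex I (NDUFA, NDUFB, NDUFC, NDUFS and NDUFV genes), complex II (SDHA to SDHD), complex III (UQCR genes), complex IV (COX4 to COX8 genes) or complex V (ATP5 genes). They are 85 of the 26801 genes in the deposited table: 36 of complex I, 4 of complex II, 9 of complex III, 17 of complex IV and 19 of complex V. NDUFA4 and its paralog NDUFA4L2 carry complex I names and are counted here with complex IV, where the NDUFA4 protein is known to sit. The choice used symbols only, not levels.

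The 30 libraries form 10 groups of 3, named here as in the labels. KOA marks the RSRP1 knockout and WTA the wild type; EX marks a magnetic exposure labelled 2 H and NE no field. The knockout groups were iR_KOA_D3_EX, iR_KOA_D3_NE, iR_KOA_EX, iR_KOA_NE, KOA_EX and KOA_NE, and the wild-type groups were iR_WTA_D3_EX, iR_WTA_D3_NE, iR_WTA_EX and iR_WTA_NE. The sources used here do not say what iR and D3 stand for, how many knockout clones were used, or whether replicates were grown separately; the p-values therefore measure spread among these libraries only, which may be technical. A wild type without iR was not analysed here, so knockout was compared with wild type in iR and in iR D3 cells only. The design asks whether the knockout, the exposure, or both together change transcript levels.

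As background, complexes I and II pass electrons from NADH and succinate to coenzyme Q, complex III passes them on to cytochrome c, and complex IV hands them to oxygen. Complexes I, III and IV pump protons across the inner mitochondrial membrane, and complex V lets them back to make ATP. Most subunits are encoded in the nucleus and must be matched with a small set encoded in mitochondrial DNA; the coactivator PGC-1alpha (PPARGC1A) and the factors NRF1, GABPA and ERRalpha (ESRRA) are known to drive many of the nuclear genes together.

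Levels are FPKM, fragments scaled to a length for each gene and to library depth. NDUFA9 had a mean of 11.1 FPKM from 2910 to 3859 reads per library, and NDUFB1 162 FPKM from 1237 to 2254 reads. Ranks, medians and sums across genes therefore depend on the lengths used, which were not examined here. RSRP1 was at 2.09 to 7.95 FPKM in the 18 knockout libraries and at 37.4 to 63.4 FPKM in the 12 wild-type libraries. The keratins KRT8 and KRT18 and the A549-typical enzymes AKR1B10 and ALDH1A1 were high in every library (lowest 726 FPKM), EPCAM was low at 0.402 to 1.85 FPKM, and of 9 markers of leukocytes, endothelium and fibroblasts in the table PTPRC, PECAM1, VWF, COL1A2, DCN and PDGFRB were at most 0.0411 FPKM. The other 3 were higher, with CD68 at 23.7 to 39.6, COL1A1 at 0.443 to 3.71 and CDH5 at 0 to 1.29 FPKM. The deposited values correspond to 34620432 to 38939336 reads per library. In iR_KOA_EX replicate 2 many members lay below the other two libraries of its group, as described with the exposure results. Changes in these bulk cultures are levels of RNA: fewer cells of a type and less RNA per cell cannot be told apart.

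Of the 85 subunits, 79 reached 1 FPKM in at least 3 libraries and were tested. Their mean level over all libraries ran from 0.627 FPKM (NDUFA4L2) to 624 FPKM (ATP5F1B, the catalytic beta subunit of ATP synthase). The median of the member means was 51.6 FPKM for complex I, 41.8 for complex II, 72.5 for complex III, 146 for complex IV and 101 for complex V. Together the 85 subunits held 1.64 to 2.10% of all FPKM in a library. For comparison, the 13 mitochondrially encoded subunits held 20.1 to 30.8%. Most members varied little: the highest group mean was a median of 1.38 times the lowest, from 1.13 times for the complex I core subunit NDUFV1 to 12.5 times for NDUFA4L2.

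The 6 untested members were almost all isoforms known from other tissues. COX7A1, the heart and muscle form of a complex IV subunit, was listed at 0 in 22 libraries, COX7B2 in 28 and COX8C in 24. ATP5MGL was listed at 0 in 22 libraries, and COX6B2, the testis form of COX6B1, reached at most 0.248 FPKM. Their ubiquitous counterparts were high; COX6B1 ranged from 365 to 655 FPKM and COX8A from 232 to 393 FPKM. ATP5F1E, the epsilon subunit of the ATP synthase head, does not belong with them: it is part of every enzyme, yet it was listed at 0.271 to 0.852 FPKM, or 35 to 108 reads. Of its annotated exon bases 23% overlap another gene (GENCODE 29), and the sources used here do not say how such reads were counted, which leaves its level uncertain. COX4I2 and COX6A2, the inducible and muscle forms of COX4 and COX6A, were not analysed here.

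**Figure D1:**
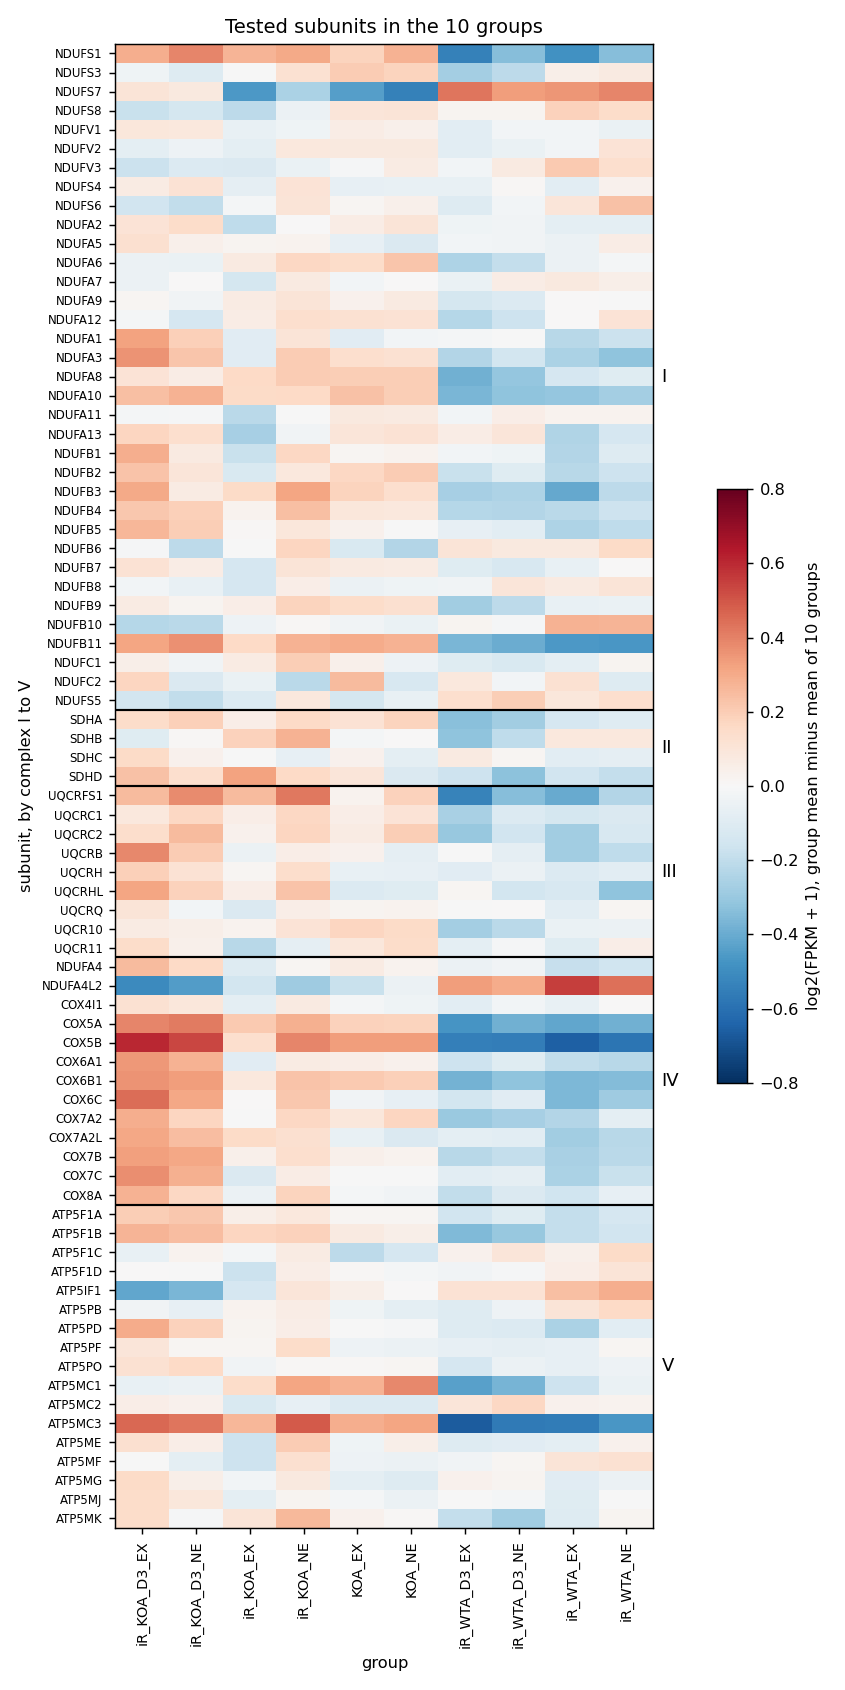
Each row is a tested subunit (1 of the 79 is not drawn), in blocks of complex I to V, and each column is 1 of the 10 groups; colour is the group mean of log2(FPKM + 1) minus the mean of the 10 groups (n = 3 libraries per group), red above and blue below that mean. In complexes III and IV the iR_KOA_D3 columns are mostly red and the 4 wild-type columns on the right mostly blue, and iR_KOA_EX is paler than iR_KOA_NE.

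RSRP1 knockout went with higher levels of many subunits, most evenly in complexes II, III and IV. In iR D3 cells 40 of the 79 tested subunits were higher in the knockout than in the wild type and 11 lower, and in iR cells 42 were higher and 9 lower (limma on log2(FPKM + 1), Benjamini-Hochberg over 12086 genes, adjusted p under 0.05). The knockout moved a large part of all genes tested: 69.1% passed in iR D3 and 65.3% in iR, so the number of subunits that passed is near the background. The direction was not: 24.8% of all genes were higher and 44.3% lower in iR D3, and 27.9% higher and 37.4% lower in iR. The median subunit differed by 0.18 in iR D3 and 0.17 in iR on the log2 scale, beside -0.11 and -0.056 for all genes. The comparisons share no library; 37 subunits were higher in both and 8 lower in both, beside 21.2% and 33.3% of all genes. NDUFA4L2 is 1 of the 8 and passed the filter on low values through wild-type libraries alone.

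By complex, 11 of the 13 tested complex IV subunits were higher and 1, NDUFA4L2, was lower in each comparison. Of complex III 7 of 9 were higher in each, and of complex II 3 of 4. Complex I was mixed, with 12 higher and 7 lower of 36 in iR D3 and 16 higher and 5 lower in iR; the risers sat mostly among the accessory subunits of its membrane arm, where 9 and 12 of 20 were higher, against 1 and 2 of the 9 accessory subunits of the matrix arm. Complex V had 7 higher and 3 lower of 17 in iR D3 and 5 higher and 3 lower in iR. Summed over its subunits, complex IV reached 3057 ± 107 FPKM in unexposed knockout and 2220.0 ± 32.7 FPKM in unexposed wild-type iR D3 cells (SD, n = 3 each). In iR cells the sums were 2799 ± 37.0 FPKM in the knockout and 2146 ± 47.4 FPKM in the wild type.

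**Figure D2:**
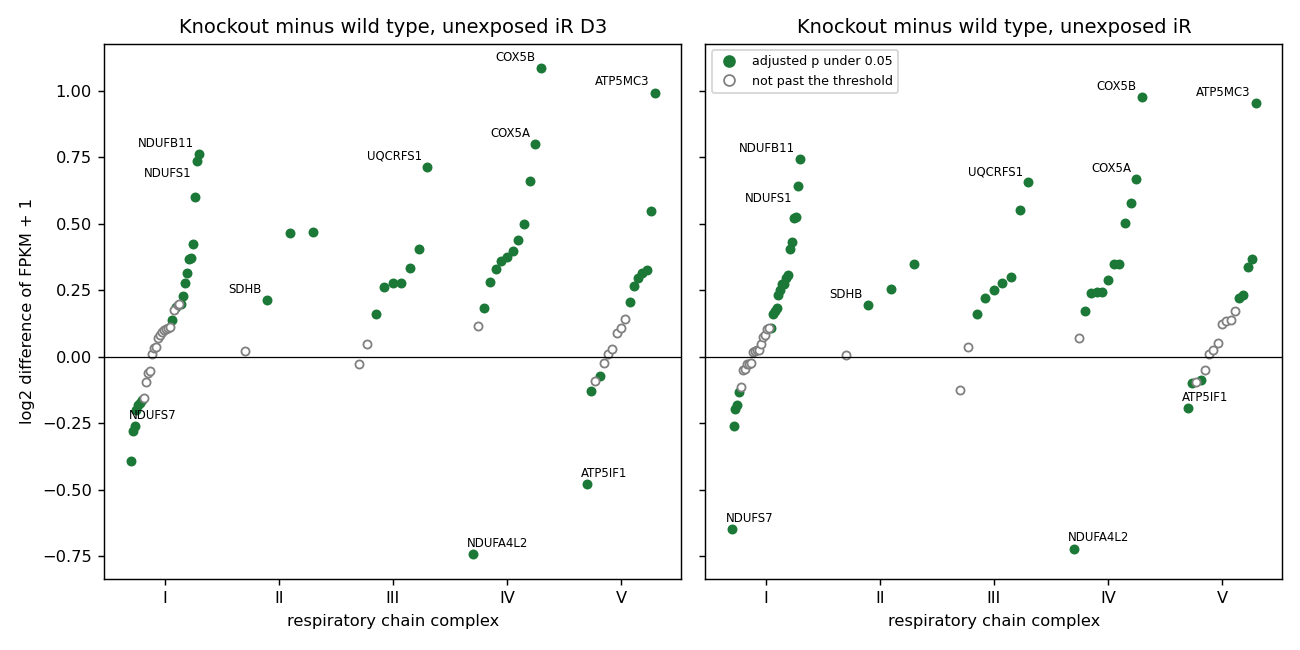
Each point is 1 of the 79 tested subunits; the vertical axis is the knockout minus wild-type difference of log2(FPKM + 1) in unexposed iR D3 cells (left) and unexposed iR cells (right), sorted within each complex, with filled points past an adjusted p of 0.05. COX5B and ATP5MC3 stand highest in both panels and NDUFA4L2 lowest, and complexes II and III have no filled point below 0.

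Some measures of the libraries moved with the genotype, and their part in these differences was not tested. Mitochondrially encoded transcripts held 28.5 to 30.8% of FPKM in unexposed knockout and 22.5 to 23.4% in wild-type iR D3 libraries. In iR cells they held 24.3 to 24.9% in the knockout and 20.1 to 22.2% in the wild type. After rescaling each library to its nuclear genes the subunits split 50 higher and 8 lower (27.9% and 38.1% of all genes) in iR D3, and 45 higher and 7 lower (28.7% and 35.1%) in iR. In iR D3 median-of-ratios scaling gave 54 higher and 3 lower (31.2% and 34.3%), and quantile normalization 53 higher and 6 lower (30.8% and 35%). The shares in brackets are of all genes tested under the same scaling, here and below. The 8 epithelial markers held 1.87 to 1.89% in unexposed knockout and 1.65 to 1.66% in wild-type iR D3 libraries, and 1.89 to 1.90% and 1.48 to 1.54% in iR. Of these 8 markers 4 were higher and 2 lower in the iR D3 knockout, and 7 higher and 1 lower in the iR knockout. The markers of leukocytes, endothelium and fibroblasts summed to 0.00645 to 0.00673% in knockout and 0.00862 to 0.00911% in wild-type iR D3 libraries, and to 0.00791 to 0.00868% and 0.00698 to 0.00762% in iR, mostly CD68.

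Promoters of members that were higher in both knockout comparisons are shown here because known binding motifs of the respiratory-gene factors fall within them. Of the 85 members 70 had a promoter in the RefSeq table (assembly GRCh38.p14), each of 300 bases, from 250 before to 50 after the annotated start. COX5B is shown for its knockout difference, the largest of all members. The other 4 are all the members higher in both comparisons whose window holds a motif of the estrogen-related receptors, which PGC-1alpha is known to coactivate. NDUFB4, an accessory subunit of the complex I membrane arm, falls outside the rule for named genes and was chosen after its values were seen. Capitals mark exact matches, on either strand, to GCGCATGCGC (NRF1), CCGGAAG (ETS factors such as GABPA), AAGATGGCG (YY1) and AAGGTCA (estrogen-related receptor), or to their reverse complements CTTCCGG, CGCCATCTT and TGACCTT; GCGCATGCGC is its own reverse complement.
NDUFB4, chr3:120596086-120596385 (plus strand): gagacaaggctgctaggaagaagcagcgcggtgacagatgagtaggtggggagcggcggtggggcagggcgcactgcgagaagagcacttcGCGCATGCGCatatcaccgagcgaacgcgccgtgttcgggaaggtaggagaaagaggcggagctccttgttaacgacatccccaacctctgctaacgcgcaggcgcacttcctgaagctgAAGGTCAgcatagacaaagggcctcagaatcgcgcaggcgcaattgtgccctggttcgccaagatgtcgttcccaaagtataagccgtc
SDHB, chr1:17053983-17054282 (minus strand): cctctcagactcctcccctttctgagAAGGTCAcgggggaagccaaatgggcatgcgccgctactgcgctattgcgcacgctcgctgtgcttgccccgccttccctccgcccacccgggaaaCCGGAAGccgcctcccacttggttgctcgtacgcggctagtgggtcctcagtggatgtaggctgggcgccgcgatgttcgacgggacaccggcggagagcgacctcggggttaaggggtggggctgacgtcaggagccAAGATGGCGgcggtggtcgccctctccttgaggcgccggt
SDHD, chr11:112086623-112086922 (plus strand): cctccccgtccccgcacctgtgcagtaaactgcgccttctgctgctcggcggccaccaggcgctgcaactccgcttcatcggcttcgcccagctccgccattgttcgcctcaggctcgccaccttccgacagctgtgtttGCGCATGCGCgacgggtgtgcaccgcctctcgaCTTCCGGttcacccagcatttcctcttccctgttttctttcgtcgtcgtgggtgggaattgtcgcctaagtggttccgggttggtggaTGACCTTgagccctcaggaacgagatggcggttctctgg
COX5B, chr2:97645812-97646111 (plus strand): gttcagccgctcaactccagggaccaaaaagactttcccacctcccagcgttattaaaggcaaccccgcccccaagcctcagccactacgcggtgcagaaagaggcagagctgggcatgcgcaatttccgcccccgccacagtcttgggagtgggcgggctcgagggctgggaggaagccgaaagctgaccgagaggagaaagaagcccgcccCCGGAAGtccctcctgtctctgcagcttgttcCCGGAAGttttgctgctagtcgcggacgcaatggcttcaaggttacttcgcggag
COX8A, chr11:63974370-63974669 (plus strand): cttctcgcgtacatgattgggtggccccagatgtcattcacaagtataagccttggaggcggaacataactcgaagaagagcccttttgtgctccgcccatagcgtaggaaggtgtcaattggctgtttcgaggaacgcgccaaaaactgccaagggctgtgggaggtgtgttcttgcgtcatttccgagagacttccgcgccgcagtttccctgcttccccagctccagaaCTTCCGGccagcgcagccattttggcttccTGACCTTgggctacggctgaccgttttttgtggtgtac

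COX5B holds a pair of ETS matches and no match to the other motifs in this window. SDHB holds an estrogen-related receptor, an ETS and a YY1 match, and SDHD an NRF1, an ETS and an estrogen-related receptor match. Over all promoters, AAGGTCA lay in 9 of the 70 members (12.9%) and in 2.45% of the 9216 promoters of tested protein-coding genes. It lay in 13.8% of the 29 members higher in both knockout comparisons and in 12.2% of the other 41. AAGATGGCG lay in 11.4% of members and 4.37% of promoters, GCGCATGCGC in 5.71% and 2.43%, and CCGGAAG in 28.6% and 20.4%. None of the motifs overlaps another in the windows shown, and a match here is a description of letters, not a bound site.

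Among complex I subunits the knockout difference was largest for NDUFB11, an accessory subunit of the membrane arm (chromosome X, 47142216 to 47145491, RefSeq coordinates on GRCh38.p14 here and below). In iR D3 cells without exposure NDUFB11 had 64.1, 61.0 and 59.6 FPKM in the knockout, against 34.7, 36.4 and 36.8 FPKM in the wild type. In iR cells, also unexposed, it had 56.8, 57.9 and 58.9 FPKM in the knockout, against 36.4, 30.7 and 35.8 FPKM in the wild type. Every knockout library was above every wild-type library, with log2 differences of 0.76 ± 0.0654 (SE; adjusted p = 1.41e-10) in iR D3 and 0.74 ± 0.0654 (SE; adjusted p = 2.74e-10) in iR. Of its exon bases 45% overlap the gene RBM10 on the other strand.

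NDUFS1 (chromosome 2, 206114817 to 206159444), the largest core subunit, which carries iron-sulfur clusters of the electron path, followed among the complex I subunits that rose. Of its exon bases 12% overlap other genes, among them EEF1B2, with 3.2% shared on the same strand. Unexposed iR D3 cells had NDUFS1 at 19.1, 18.8 and 19.5 FPKM in the knockout, against 11.1, 11.2 and 11.0 FPKM in the wild type. Unexposed iR cells had it at 17.9, 17.8 and 18.0 FPKM in the knockout, against 11.0, 10.9 and 11.4 FPKM in the wild type. The groups did not overlap, and the log2 differences were 0.74 ± 0.0321 (SE; adjusted p = 1.4e-16) in iR D3 and 0.64 ± 0.0321 (SE; adjusted p = 2.91e-15) in iR. The core subunits NDUFS3, NDUFV1 and NDUFV2 did not pass the test in either, with differences of 0.11, 0.11 and 0.011 in iR D3. NDUFS8, which carries further iron-sulfur clusters, fell by 0.16 and 0.20 on the log2 scale (adjusted p = 0.0271 and 0.00897). The iR D3 call ended, with the adjusted p in brackets, with no filter on low values (0.0542), under median-of-ratios scaling (0.399), under quantile normalization (0.0639), under nuclear scaling (0.0732), and without iR_KOA_D3_NE replicate 3 (0.178), iR_WTA_D3_NE replicate 1 (0.0541) or iR_WTA_D3_NE replicate 2 (0.0891).

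NDUFS7 (chromosome 19, 1383907 to 1395584), the core subunit that holds the last iron-sulfur cluster before coenzyme Q, went the other way from NDUFS1. NDUFS7 stood, in iR D3 cells without exposure, at 9.06, 9.69 and 6.71 FPKM in the knockout, against 9.73, 10.6 and 10.4 FPKM in the wild type. It stood in unexposed iR cells at 6.12, 6.58 and 6.72 FPKM in the knockout, against 11.3, 10.3 and 10.5 FPKM in the wild type. In iR D3 the highest knockout library was just below the lowest wild-type one, in iR the groups were far apart, and the log2 differences were -0.26 ± 0.0832 (SE; adjusted p = 0.00773) in iR D3 and -0.65 ± 0.0832 (SE; adjusted p = 2.09e-07) in iR. The iR D3 call ended under median-of-ratios scaling (0.0785), under quantile normalization (0.0661), with only the compared groups in the fit (0.0549), and without iR_KOA_D3_NE replicate 3 (0.137). Of its exon bases 49% overlap genes on the other strand, and without a stated strand setting their reads cannot be told apart.

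Other complex I subunits fell in the knockout. NDUFB10, an accessory subunit of the membrane arm, fell by 0.20 in iR D3 and 0.26 in iR on the log2 scale (adjusted p = 0.00443 and 0.000477). NDUFS5, on the intermembrane-space side, had 172, 174 and 169.9 FPKM in unexposed knockout iR D3 cells, against 214, 229 and 235 FPKM in the wild type, without overlap (-0.39 ± 0.0704 SE, adjusted p = 2.55e-05). In iR it did not pass, at -0.050 (adjusted p = 0.550). NDUFB6 fell by 0.28 in iR D3 (adjusted p = 0.0104; 0.0777 under median-of-ratios scaling) and did not pass in iR (0.016, adjusted p = 0.888).

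Complex II, succinate dehydrogenase, is also an enzyme of the tricarboxylic acid cycle, and 3 of its 4 subunits were higher in the knockout. SDHA, the flavoprotein that oxidises succinate, had 37.0, 36.2 and 34.6 FPKM in unexposed knockout iR D3 cells, against 25.0, 25.4 and 26.8 FPKM in the wild type. In iR cells it had 34.8, 34.2 and 36.4 FPKM in the knockout, against 30.0, 28.4 and 29.5 FPKM in the wild type. The groups did not overlap, and the log2 differences were 0.47 ± 0.0416 (SE; adjusted p = 2.61e-10) in iR D3 and 0.25 ± 0.0416 (SE; adjusted p = 7.91e-06) in iR. SDHB, the iron-sulfur subunit, was higher by 0.21 and 0.19 (adjusted p = 0.000219 and 0.000641).

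Of the membrane anchors, SDHD was higher and SDHC was not called. SDHD differed by 0.46 ± 0.0782 (SE; adjusted p = 1.09e-05) in iR D3 and 0.35 ± 0.0782 (SE; adjusted p = 0.000370) in iR. SDHC differed by 0.020 ± 0.0308 (SE) in iR D3 and 0.0053 ± 0.0308 in iR, with adjusted p = 0.584 and 0.890. SDHA has near-identical pseudogenes, so reads may have been shared among them, and 12% of the exon bases of SDHD overlap other genes.

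In complex III the largest difference was that of UQCRFS1 (chromosome 19, 29205320 to 29213151), the Rieske iron-sulfur protein that passes electrons towards cytochrome c. In iR D3 cells without exposure UQCRFS1 had 103, 100.2 and 96.3 FPKM in the knockout, against 60.4, 61.0 and 60.1 FPKM in the wild type. In iR cells, also unexposed, it had 102, 102 and 104 FPKM in the knockout, against 65.9, 62.4 and 66.9 FPKM in the wild type. The groups were far apart, with log2 differences of 0.71 ± 0.0300 (SE; adjusted p = 6.06e-17) in iR D3 and 0.66 ± 0.0300 (SE; adjusted p = 4.8e-16) in iR. The core proteins UQCRC1 and UQCRC2, which hold the complex together on the matrix side, were higher as well. UQCRC1 differed by 0.28 and 0.28 and UQCRC2 by 0.41 and 0.30 (adjusted p at most 1.14e-05 in each). The hinge protein gene UQCRH and its near-identical copy UQCRHL were both higher, but their reads may have been exchanged and their levels are uncertain.

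COX5B (chromosome 2, 97646062 to 97648383), a matrix-side subunit of cytochrome c oxidase, showed the largest rise of all members. Unexposed iR D3 cells had COX5B at 242, 226 and 223 FPKM in the knockout, against 105, 107 and 113 FPKM in the wild type. Unexposed iR cells had it at 209.7, 201 and 216 FPKM in the knockout, against 104, 105 and 109 FPKM in the wild type. The knockout means were 2.13 and 1.97 times the wild-type means, without overlap, and the log2 differences were 1.08 ± 0.0966 (SE; adjusted p = 2.69e-10) in iR D3 and 0.97 ± 0.0966 (SE; adjusted p = 2.37e-09) in iR. COX5A, its neighbour on the matrix side, was higher by 0.80 in iR D3 and 0.67 in iR (adjusted p = 2.46e-13 and 1.21e-11). COX6B1, which faces the intermembrane space, was higher by 0.66 and 0.58 (adjusted p = 4.33e-10 and 6.16e-09).

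COX4I1, which contacts the catalytic core, was the only tested ubiquitous subunit of complex IV not called in either comparison, at 0.12 ± 0.0636 (SE; adjusted p = 0.108) in iR D3 and 0.069 ± 0.0636 (adjusted p = 0.347) in iR. COX7A2L, a factor that joins complexes III and IV into supercomplexes, was higher by 0.33 and 0.35 (adjusted p = 4.34e-08 and 2.28e-08), and its relative COX7A2 by 0.44 and 0.24 (adjusted p = 4.81e-05 and 0.0126). The COX7A2 call in iR ended without iR_WTA_NE replicate 2 (0.0674). NDUFA4 was higher by 0.18 and 0.17 (adjusted p = 0.00322 and 0.00587). COX8A, a small membrane subunit, shares 34.5% of its exon bases on the same strand with the gene AP000721.1. It differed by 0.28 and 0.24 (adjusted p = 0.0157 and 0.0359). These calls were unstable: the first ended without iR_KOA_D3_NE replicate 2 (0.0646) or iR_WTA_D3_NE replicate 1 (0.0537), and the second with no filter on low values (0.0808), and without iR_KOA_NE replicate 1 (0.0893), iR_KOA_NE replicate 2 (0.0517), iR_KOA_NE replicate 3 (0.0676), iR_WTA_NE replicate 2 (0.0925) or iR_WTA_NE replicate 3 (0.0708).

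NDUFA4L2 (chromosome 12, 57234903 to 57240762), the hypoxia-inducible paralog of NDUFA4, was the 1 complex IV gene that fell. NDUFA4L2 stood, in iR D3 cells without exposure, at 0.0665, 0.129 and 0.266 FPKM in the knockout, against 1.07, 0.779 and 0.944 FPKM in the wild type. It stood in unexposed iR cells at 0.216, 0.151 and 0.542 FPKM in the knockout, against 0.779, 1.37 and 1.29 FPKM in the wild type. All 12 iR knockout libraries, exposed and unexposed, were below all 12 iR wild-type libraries. The log2 differences were -0.74 ± 0.117 (SE; adjusted p = 4.2e-06) in iR D3 and -0.72 ± 0.117 (SE; adjusted p = 7.41e-06) in iR; at levels this low they understate the ratio. Its values rest on 3 to 71 reads per library. No knockout library reached 1 FPKM, so NDUFA4L2 passed the filter on low values through wild-type libraries alone and its difference is a description.

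**Figure D3:**
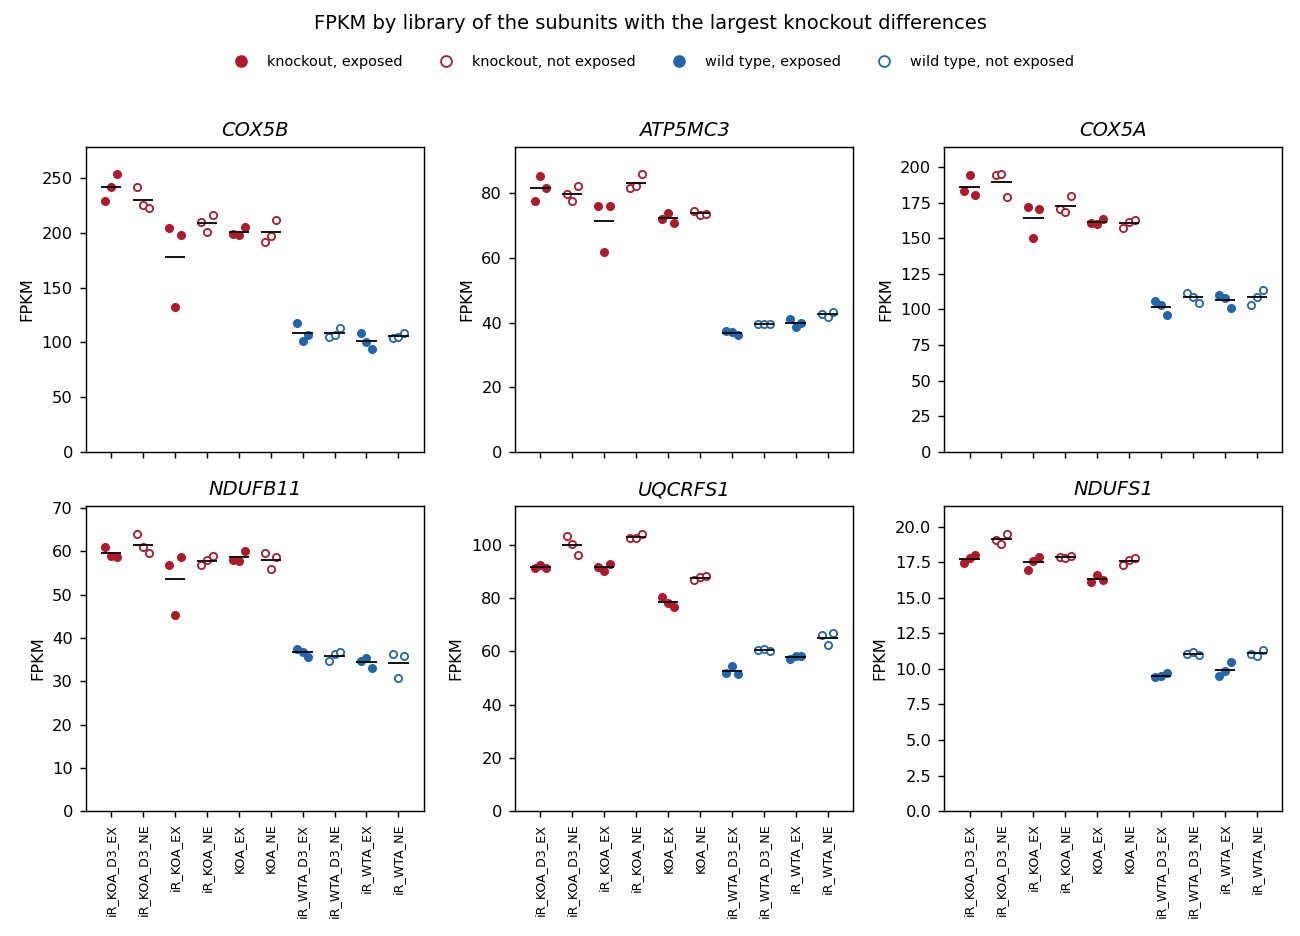
Each point is 1 library and each line the mean of 3, in FPKM on axes from 0, for the 6 subunits with the largest rises in the knockout; filled points are exposed and open points unexposed cells, red knockout and blue wild type. Every red point lies above every blue point in all 6 panels, and iR_KOA_EX replicate 2 lies lowest among the knockout libraries for COX5B at 132 FPKM.

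In complex V the largest knockout difference was that of ATP5MC3. ATP5MC3 (chromosome 2, 175176258 to 175181710) is 1 of 3 genes that encode the same c subunit of the proton-driven rotor, differing in their import sequence. In iR D3 cells without exposure ATP5MC3 had 79.8, 77.5 and 82.4 FPKM in the knockout, against 39.7, 39.6 and 39.7 FPKM in the wild type. In iR cells, also unexposed, it had 81.7, 82.4 and 85.9 FPKM in the knockout, against 42.7, 41.6 and 43.2 FPKM in the wild type. The knockout means were 2.02 and 1.96 times the wild-type means, without overlap, and the log2 differences were 0.99 ± 0.0513 (SE; adjusted p = 4.84e-15) in iR D3 and 0.95 ± 0.0513 (SE; adjusted p = 1.32e-14) in iR. ATP5MC1 differed by 0.33 and 0.37 (adjusted p = 4.5e-05 and 1.07e-05). ATP5MC2 was lower in iR D3 at -0.13 (adjusted p = 0.0284), a call that ended under median-of-ratios scaling (0.616), under quantile normalization (0.301), under nuclear scaling (0.123), and without iR_KOA_D3_NE replicate 2 (0.0538), iR_KOA_D3_NE replicate 3 (0.0902) or iR_WTA_D3_NE replicate 2 (0.105). In iR it was not called (-0.10, adjusted p = 0.104).

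The 3 c-subunit genes made up the pool of FPKM in different proportions, which depend on the gene lengths used. Reads per library were 3022 to 5749 for ATP5MC1, 5138 to 7359 for ATP5MC2 and 4371 to 10834 for ATP5MC3. ATP5MC3 held 25.0% of their summed FPKM in unexposed knockout and 15.9% in unexposed wild-type iR D3 cells, and 22.5% and 15.1% in iR. ATP5MC2 held 19.4% in knockout and 27.3% in wild-type iR D3 cells. The sum was 319.9 ± 2.26 FPKM in the knockout and 249 ± 6.73 FPKM in the wild type in iR D3 (SD, n = 3 each), and 370.5 ± 9.98 and 282 ± 6.37 FPKM in iR.

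Of the ATP synthase head, ATP5F1B and ATP5F1A were higher in the knockout in both comparisons, while ATP5F1C was lower in both. ATP5F1B differed by 0.55 ± 0.0345 (SE; adjusted p = 2.7e-13) in iR D3 and 0.34 ± 0.0345 (SE; adjusted p = 4.24e-09) in iR. ATP5F1A differed by 0.32 and 0.22 (adjusted p = 1.86e-09 and 9.23e-07). ATP5IF1, the protein that blocks the enzyme from running backwards, was lower. Unexposed iR D3 cells had ATP5IF1 at 20.1, 18.2 and 17.7 FPKM in the knockout, against 27.5, 25.5 and 26.1 FPKM in the wild type. Unexposed iR cells had it at 26.7, 25.4 and 25.8 FPKM in the knockout, against 31.0, 28.2 and 30.2 FPKM in the wild type. The groups did not overlap in either, and the log2 differences were -0.48 ± 0.0552 (SE; adjusted p = 2.74e-08) in iR D3 and -0.19 ± 0.0552 (SE; adjusted p = 0.00352) in iR.

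Taking all 12 iR knockout libraries against all 12 iR wild-type libraries, exposed and unexposed together, 15 of the 79 subunits lay higher without overlap and 2 lower. Among all genes tested 10.1% lay higher and 10.7% lower without overlap (20.8% in all). The lowest, median and highest values of COX5B were 132, 219.7 and 254 FPKM in the knockout, against 94.3, 106 and 118 FPKM in the wild type. For UQCRC2 they were 119, 131 and 144 FPKM in the knockout, against 94.8, 101 and 115 FPKM in the wild type. The 2 lower genes were NDUFS7 and NDUFA4L2, the second of which passed the filter through wild-type libraries alone. Without iR_KOA_EX replicate 2, described below, 27 were higher and 2 lower, beside 10.8% and 11% of all genes (21.8% in all).

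Other genes of the pathway, from lists set by name, moved with the knockout in part. Of the 14 regulators 3 were higher and 8 lower in iR D3, beside 24.8% and 44.3% of all genes. In iR 3 were higher and 7 lower, beside 27.9% and 37.4%. The highest was PPARGC1A, the coactivator PGC-1alpha. PPARGC1A stood, in iR D3 cells without exposure, at 10.9, 11.1 and 12.1 FPKM in the knockout, against 0.480, 0.581 and 0.557 FPKM in the wild type. It stood in unexposed iR cells at 10.6, 9.94 and 9.40 FPKM in the knockout, against 0.378, 0.557 and 0.440 FPKM in the wild type. Every knockout library was above every wild-type library, with log2 differences of 3.01 ± 0.0594 (SE; adjusted p = 8.07e-24) in iR D3 and 2.91 ± 0.0594 (SE; adjusted p = 2.49e-23) in iR. PPARGC1A passed the filter on low values through knockout libraries alone, so its difference is a description. Its partner ESRRA was higher by 0.63 and 0.34 (adjusted p = 6.99e-08 and 0.000368), and POLRMT, the mitochondrial RNA polymerase, by 0.49 and 0.60 (adjusted p = 2.52e-07 and 1.05e-08).

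Related coactivators and factors were lower. PPRC1, a relative of PGC-1alpha, fell by 0.49 and 0.50 on the log2 scale (adjusted p = 8.48e-10 and 6.59e-10). GABPA fell by 0.29 and 0.17 (adjusted p = 0.00119 and 0.0422). NRF1 was lower in iR (-0.47 ± 0.0769 SE, adjusted p = 7.94e-06) and did not pass in iR D3 (-0.089, adjusted p = 0.307). Of the 13 mitochondrially encoded subunits 10 were higher in iR D3, and 10 higher and 1 lower in iR, from 0.29 for COX1 to 0.83 for ND3 in iR D3. Among all genes 24.8% were higher in iR D3, and 27.9% higher and 37.4% lower in iR.

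Tricarboxylic acid cycle genes had 6 of 13 higher and 2 lower in iR D3, beside 24.8% and 44.3% of all genes. They had 7 higher and 3 lower in iR, beside 27.9% and 37.4%. IDH3A, the catalytic subunit of isocitrate dehydrogenase, had 35.2, 32.8 and 33.9 FPKM in the knockout, against 14.5, 14.5 and 13.9 FPKM in the wild type in iR D3 (1.19 ± 0.0372 SE, adjusted p = 1.2e-19). Of 53 assembly factors tested 15 were higher and 14 lower in iR D3, beside 24.8% and 44.3% of all genes, and 16 higher and 13 lower in iR, beside 27.9% and 37.4%. Their median difference was -0.028 in iR D3 and 0.065 in iR, beside -0.11 and -0.056 for all genes; whether they differed from the subunits was not tested. The highest were HIGD2A (0.97 in iR D3, adjusted p = 1.64e-13) and COA5 (0.78, adjusted p = 5.74e-10), both known to serve complex IV. Of 13 coenzyme Q synthesis genes 5 were higher and 4 lower in iR D3, and 7 higher in iR, beside the same shares of all genes.

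Exposure moved few subunits, and the same pair of complex III genes, UQCRC2 and UQCRFS1, fell in every background, where 7.87% of all genes were lower in all 5. In iR_KOA_D3 4 of 79 subunits were higher and 4 lower, beside 17.3% of all genes higher and 27.8% lower (45.1% in all). In iR_KOA 21 were lower, beside 13.1% of all genes higher and 22.3% lower (35.3% in all), and these rest largely on 1 library. In KOA 3 were higher and 4 lower, beside 18.8% of all genes higher and 22.7% lower (41.5% in all). In iR_WTA_D3 6 were lower, beside 15.3% of all genes higher and 26.5% lower (41.8% in all). In iR_WTA 1 was higher and 6 lower, beside 11.4% of all genes higher and 17.2% lower (28.6% in all). In this fit the share of subunits that passed was below the background in all 5. Of the 79 subunits 50 passed in none, beside 29.9% of all genes. Each gene's spread was estimated from all 30 libraries, iR_KOA_EX replicate 2 among them. The part of that library in the counts of the other 4 backgrounds was not tested. With only the compared groups fitted, more subunits passed in iR_KOA_D3 and fewer in iR_KOA and iR_WTA. Shares of all genes were not counted in those fits. Scaling moved the split of the small counts above. Median-of-ratios scaling gave 9 higher and 2 lower (20.5% and 24.4%) in iR_KOA_D3, 3 higher and 3 lower (19.9% and 19.5%) in iR_WTA_D3 and 1 higher and 3 lower (12.8% and 13.6%) in iR_WTA. Quantile normalization gave 3 higher and 7 lower (20.2% and 24.5%) in iR_KOA_D3, 3 higher and 7 lower (19.3% and 23.2%) in KOA and 1 higher and 7 lower (18.8% and 20.7%) in iR_WTA_D3. Nuclear scaling gave 2 higher and 6 lower (16.1% and 26.9%) in KOA and 0 higher and 7 lower (11.4% and 15.1%) in iR_WTA.

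UQCRC2 (chromosome 16, 21953361 to 21983660), a core protein of complex III, was lower with exposure in all 5 backgrounds, which share no library. In iR_KOA_D3 it had 133, 129 and 130.2 FPKM in exposed cells, against 144, 138 and 141 FPKM in unexposed cells. In KOA it had 123, 122 and 126 FPKM in exposed cells, against 132, 136 and 139 FPKM in unexposed cells. In iR_WTA_D3 it had 94.8, 96.0 and 95.4 FPKM in exposed cells, against 105, 105 and 108 FPKM in unexposed cells. Exposed and unexposed libraries did not overlap in any of the 5. The log2 differences were -0.11 in iR_KOA_D3, -0.14 in iR_KOA, -0.13 in KOA, -0.15 in iR_WTA_D3 and -0.15 in iR_WTA, with adjusted p of 0.00782, 0.00210, 0.00241, 0.000604 and 0.00169. In iR_KOA the call ended when only its own groups were fitted (adjusted p = 0.0655).

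UQCRFS1, the Rieske protein, was also lower in all 5 without overlap. In iR_KOA_D3 it had 91.3, 92.6 and 91.4 FPKM in exposed cells, against 103, 100.2 and 96.3 FPKM in unexposed cells. In iR_KOA it had 91.7, 90.1 and 92.9 FPKM in exposed cells, against 102, 102 and 104 FPKM in unexposed cells. In iR_WTA it had 57.2, 58.2 and 58.2 FPKM in exposed cells, against 65.9, 62.4 and 66.9 FPKM in unexposed cells. The log2 differences were -0.12, -0.17, -0.16, -0.20 and -0.17 in iR_KOA_D3, iR_KOA, KOA, iR_WTA_D3 and iR_WTA, with SE 0.0300 in each and adjusted p of 0.00174, 0.000121, 0.000144, 1.05e-05 and 0.000159. The call held under every alternative run in each background. UQCRC1, the partner of UQCRC2, passed in iR_WTA_D3 alone (-0.15, adjusted p = 0.0111), a call that ended under median-of-ratios scaling (0.108), with only the compared groups in the fit (0.0731), and without iR_WTA_D3_EX replicate 3 (0.104) or iR_WTA_D3_NE replicate 1 (0.0565).

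NDUFS1 was lower in 4 backgrounds, at -0.10 in iR_KOA_D3, -0.10 in KOA, -0.20 in iR_WTA_D3 and -0.14 in iR_WTA (adjusted p = 0.0104, 0.0130, 2.46e-05 and 0.00135). The KOA call ended without KOA_EX replicate 1 (0.0534), the iR_KOA_D3 call under median-of-ratios scaling (0.0577), and the iR_WTA call with only the compared groups in the fit (0.0646). In iR_KOA it did not pass, at -0.030 (adjusted p = 0.490). ATP5F1C, of the ATP synthase head, was the other member lower in 4, namely iR_KOA_D3, iR_KOA, KOA and iR_WTA. Its iR_KOA_D3, KOA and iR_WTA calls ended under median-of-ratios scaling (0.23, 0.164 and 0.0641). The KOA call also ended without any 1 of its 6 libraries and the iR_KOA_D3 call without any 1 of 3. With only the compared groups in the fit the iR_WTA call ended too (0.0504). The iR_KOA call ended without iR_KOA_EX replicate 2 (0.0812). NDUFC2, an accessory subunit of the complex I membrane arm, was the member with the largest exposure rise. In KOA it had 5.98, 6.23 and 5.24 FPKM in exposed cells, against 4.18, 4.34 and 4.20 FPKM in unexposed cells, without overlap (0.38 ± 0.0801 SE, adjusted p = 0.000458). It was also higher in iR_KOA_D3 (0.29, adjusted p = 0.00432) and in iR_WTA (0.22, adjusted p = 0.0385); the first call ended without iR_KOA_D3_EX replicate 3 (0.0645), and the second with no filter on low values (0.0840), under nuclear scaling (0.0519), and without iR_WTA_EX replicate 1 (0.0732), iR_WTA_EX replicate 2 (0.111), iR_WTA_EX replicate 3 (0.0657), iR_WTA_NE replicate 2 (0.109) or iR_WTA_NE replicate 3 (0.0923). Of its exon bases 16% are shared on the same strand with other genes, among them the read-through gene NDUFC2-KCTD14.

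**Figure D4:**
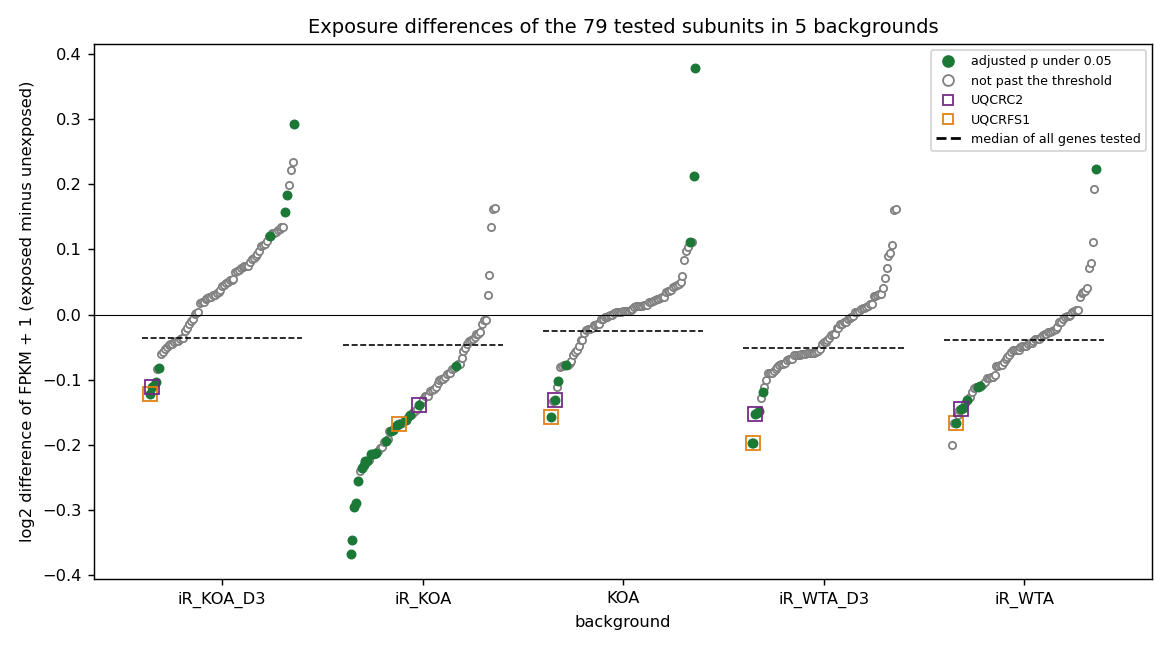
Each point is 1 of the 79 tested subunits; the vertical axis is the exposed minus unexposed difference of log2(FPKM + 1) in 5 backgrounds, filled where adjusted p is under 0.05, with squares round UQCRC2 and UQCRFS1 and a dashed line at the median of all genes tested. Both squares lie on filled points below 0 in every background, and the iR_KOA column holds 21 filled points, all below 0.

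The library iR_KOA_EX replicate 2 stood apart from its group. Its subunits deviated from the group mean by a median of -0.18 on the log2 scale, and those of replicates 1 and 3 by 0.085 and 0.077; the median over all genes was -0.011 in replicate 2. Mitochondrially encoded transcripts held 28.3% of its FPKM, against 24.6% and 24.5% in the other two, and the part of this in the exposure values was not tested. ATP5ME, a membrane subunit of ATP synthase with 62% of its exon bases overlapping MYL5 on the other strand, had 125, 68.6 and 123 FPKM in exposed cells, against 128, 134 and 132 FPKM in unexposed cells. NDUFB1, of the complex I membrane arm, had 168, 108 and 157 FPKM in exposed cells, against 179, 184 and 178 FPKM in unexposed cells. In each the value of replicate 2 is the lowest of the 6.

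With all libraries the largest differences in iR_KOA were those of ATP5ME at -0.37, NDUFB1 at -0.35, ATP5MF at -0.30, NDUFA3 at -0.29 and COX5B at -0.26 (adjusted p = 0.0317, 0.00712, 0.00595, 0.00761 and 0.0415). Without replicate 2 they were -0.087, -0.15, -0.21, -0.14 and -0.055 (adjusted p = 0.432, 0.0776, 0.0596, 0.0990 and 0.538), and 4 subunits were past the threshold: ATP5IF1, ATP5MC3, UQCRC2 and UQCRFS1. The median subunit was at -0.13 with all libraries and -0.038 without it. All 5 calls also ended when only the compared groups were fitted. Those of ATP5ME and COX5B also ended with no filter on low values, under median-of-ratios scaling, and without iR_KOA_NE replicate 1, 2 or 3. Leaving out iR_KOA_EX replicate 1 or replicate 3 in place of replicate 2 gave 37 and 42 subunits past the threshold, and leaving out iR_KOA_NE replicate 3 gave 12.

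Whether exposure acted differently in knockout and wild-type cells was tested directly. By limma 0 of 79 subunits passed in iR D3, with 1 at an unadjusted p under 0.05, beside 1.24% of all genes higher and 1.14% lower (2.38% in all). In iR 0 passed, with 8 at an unadjusted p under 0.05, beside 0.273% of all genes higher and 0.265% lower (0.538% in all). Higher here means a more positive exposure effect in the knockout. For UQCRFS1 the knockout minus wild-type difference of the exposure effect was 0.075 ± 0.0424 (SE; adjusted p = 0.444) in iR D3 and -0.0024 ± 0.0424 (adjusted p = 0.992) in iR. Within knockout cells, exposure effects differed between iR_KOA_D3 and iR_KOA for 4 subunits, all more positive in iR_KOA_D3, beside 1.74% of all genes higher and 2.4% lower (4.14% in all), and between iR_KOA and KOA for 1, more negative in iR_KOA, beside 1.66% of all genes higher and 3.42% lower (5.08% in all). Leaving out 1 library at a time gave 1 to 10 and 0 to 6. The first count was 1 without iR_KOA_D3_EX replicate 3, iR_KOA_D3_NE replicate 2, iR_KOA_EX replicate 2, or iR_KOA_NE replicate 1 or 2. The second was 0 without KOA_EX replicate 1 or 2, any KOA_NE library, iR_KOA_EX replicate 2 or iR_KOA_NE replicate 1. The genes are given with the results marked for a closer look. Between iR_WTA_D3 and iR_WTA 0 passed, beside 0.753% of all genes higher and 0.918% lower (1.67% in all), with 2 at an unadjusted p under 0.05.

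Among the other pathway genes, MYC was higher with exposure in all 5 backgrounds, by 0.62 to 0.82 on the log2 scale, and PPARGC1B, a relative of PGC-1alpha, was lower in all 5, from -0.51 to -0.30 (adjusted p at most 8.39e-05). PPARGC1A was higher in iR_KOA_D3 (0.28 ± 0.0594 SE, adjusted p = 0.000460) and did not pass in the other 4. COQ9 and PDSS1 of coenzyme Q synthesis and DMAC2L, a factor of ATP synthase outside the symbol pattern, were lower in all 5. Of 53 assembly factors tested, 3 were higher and 7 lower with exposure in iR_KOA_D3, beside 17.3% and 27.8% of all genes. In iR_KOA 14 were lower, beside 22.3%, a count that includes iR_KOA_EX replicate 2 and was not repeated without it. In KOA 2 were higher and 11 lower, beside 18.8% and 22.7%. In iR_WTA_D3 2 were higher and 9 lower, beside 15.3% and 26.5%, and in iR_WTA 10 were lower, beside 17.2%. Mitochondrially encoded transcripts held 23.5 to 25.5% of FPKM in exposed and 27.2 to 29.7% in unexposed KOA libraries, and their part in the KOA values was not tested. In KOA 8 of the 13 mitochondrially encoded subunits fell, while the nuclear-encoded median was at 0.0051.

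With D3 subunits moved in both directions, and the balance depended on the scaling. In unexposed iR_KOA cells 14 subunits were higher and 19 lower with D3, beside 19.2% of all genes higher and 34.5% lower (53.7% in all). In unexposed iR_WTA cells 4 were higher and 18 lower, beside 22.3% of all genes higher and 26.3% lower (48.7% in all). In iR_KOA median-of-ratios scaling gave 28 higher and 9 lower (27.7% and 24.4%), quantile normalization 29 higher and 10 lower (27.1% and 25.1%), and nuclear scaling 27 higher and 12 lower (24% and 27.1%). In iR_WTA they gave 8 higher and 16 lower (23.9% and 23.7%), 19 higher and 11 lower (24% and 22.5%) and 10 higher and 17 lower (23.8% and 23.2%). In both genotypes 14 subunits were lower and 3 higher, beside 21.3% and 12.9% of all genes. Of the 14, 7 were lower in both under median-of-ratios scaling, 7 under quantile normalization and 9 under nuclear scaling. The knockout and D3 comparisons share their unexposed libraries.

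ATP5MC1, the c-subunit gene with the highest FPKM, had 175, 179 and 179 FPKM in unexposed iR_KOA_D3 cells, against 226, 227 and 234 FPKM in iR_KOA cells. In the wild type it had 136, 145 and 145 FPKM with D3, against 175, 174 and 182 FPKM without. It was lower in each without overlap (-0.36 ± 0.0615 SE, adjusted p = 1.98e-05 in iR_KOA and -0.32 ± 0.0615 SE, adjusted p = 0.000115 in iR_WTA). SDHB fell by 0.27 in iR_KOA and 0.29 in iR_WTA (adjusted p = 2.06e-05 and 1.11e-05) and NDUFB10 fell by 0.22 and 0.28 (adjusted p = 0.00268 and 0.000346). ATP5IF1 fell by 0.46 in iR_KOA and 0.17 in iR_WTA (adjusted p = 1.32e-07 and 0.0126), where the second call ended under quantile normalization (0.247), and without iR_WTA_D3_NE replicate 2 (0.0579) or iR_WTA_NE replicate 1 (0.0636). The 3 subunits higher in both were COX7A2L, NDUFA4 and SDHC, each by at most 0.15. Of these the iR_KOA call of COX7A2L ended without iR_KOA_NE replicate 3 (0.0532) and that of NDUFA4 without iR_KOA_D3_NE replicate 1 (0.0784), iR_KOA_D3_NE replicate 3 (0.0742) or iR_KOA_NE replicate 1 (0.0522). The iR_WTA call of NDUFA4 ended with no filter on low values and without any 1 of the 6 libraries. The iR_KOA call of SDHC ended with only the compared groups in the fit (0.0616), and its iR_WTA call with only the compared groups in the fit (0.0629), and without iR_WTA_D3_NE replicate 1 (0.0629), iR_WTA_D3_NE replicate 3 (0.0554) or iR_WTA_NE replicate 3 (0.0649).

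The D3 effect differed between knockout and wild type for 6 subunits, 4 with a positive and 2 with a negative difference, beside 5.19% of all genes higher and 12.3% lower (17.5% in all). Median-of-ratios scaling gave 10 higher and 2 lower (8.78% and 7.76%), and nuclear scaling 7 higher and 2 lower (6.82% and 9.42%). NDUFS7 was higher with D3 in the knockout (0.33 ± 0.0832 SE, adjusted p = 0.00159) and did not pass in the wild type (-0.058, adjusted p = 0.597), a difference of 0.39 ± 0.118 (SE; adjusted p = 0.0218). In the knockout the groups overlapped, since the lowest library with D3 had 6.71 FPKM and the highest without had 6.72 FPKM. The call on the difference ended with only the compared groups in the fit (0.0593), and without iR_KOA_D3_NE replicate 1 (0.0666), iR_KOA_D3_NE replicate 2 (0.0850), iR_KOA_NE replicate 1 (0.0592), iR_WTA_D3_NE replicate 1 (0.0598) or iR_WTA_NE replicate 1 (0.0597). NDUFA10, ATP5F1B and SDHA had positive differences of 0.17, 0.21 and 0.21, and ATP5IF1 and NDUFS5 negative ones of -0.29 and -0.34 (adjusted p at most 0.0218). Of the other genes of the pathway, 27 of 53 assembly factors were lower with D3 in iR_KOA and 25 in iR_WTA, and 2 and 1 were higher. Of all genes 34.5% and 26.3% were lower, and 19.2% and 22.3% higher. The assembly factors were not recounted under the other scalings, where the share of all genes lower in iR_KOA was 24.4% with median-of-ratios.

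**Figure D5:**
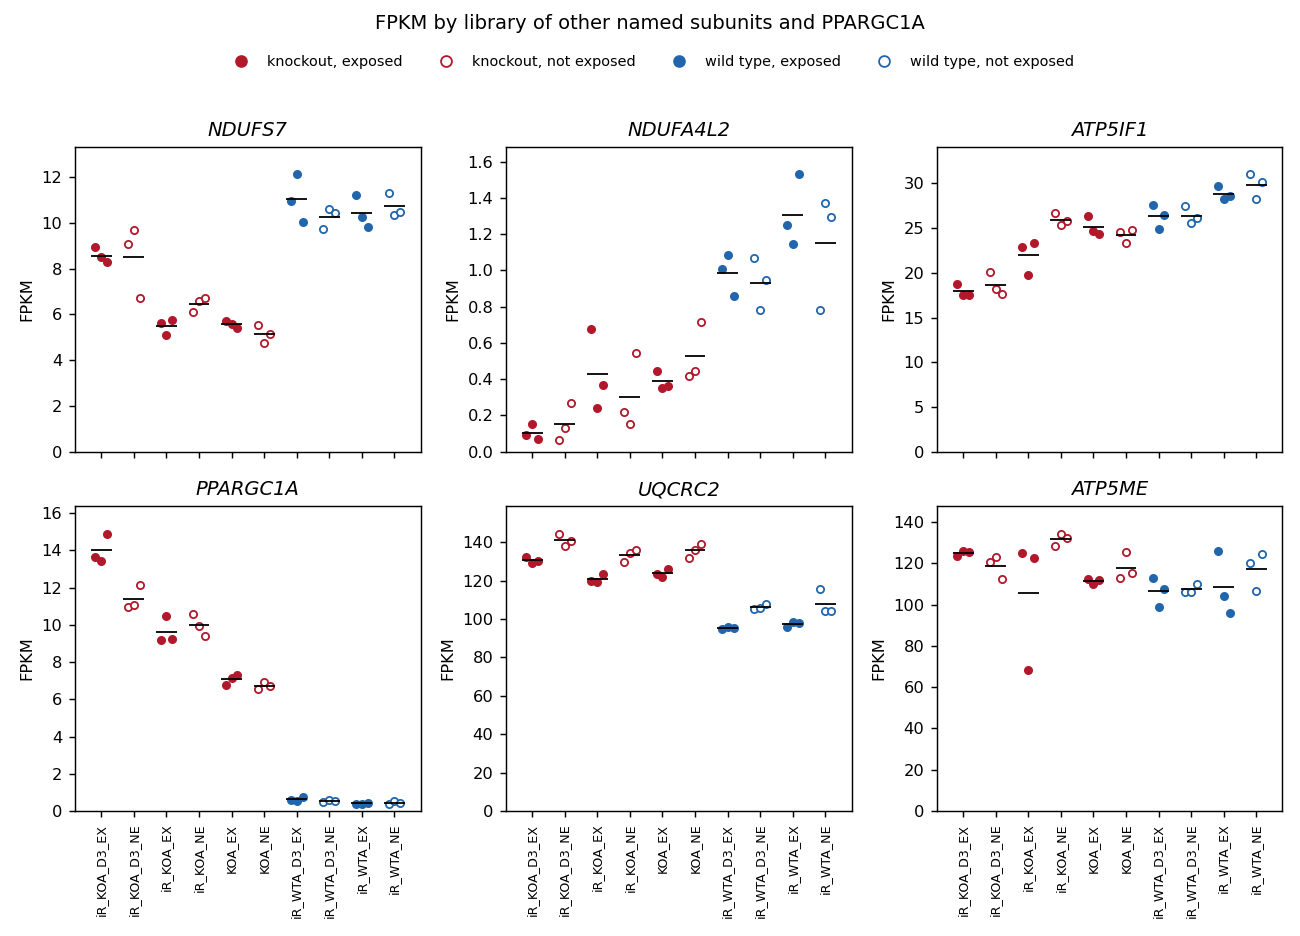
Each point is 1 library and each line the mean of 3, in FPKM on axes from 0; filled points are exposed and open points unexposed cells, red knockout and blue wild type. NDUFS7 and NDUFA4L2 are lower in red iR groups than in blue ones, PPARGC1A is higher in every red than in every blue library, UQCRC2 steps down with exposure in each pair, and ATP5ME shows the single low point of iR_KOA_EX replicate 2 at 68.6 FPKM.

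iR was compared in unexposed knockout cells alone, where 18 subunits were higher and 1 lower, beside 18.7% of all genes higher and 19.8% lower (38.5% in all). Quantile normalization gave 16 higher and 5 lower (20.3% and 18.9%), and nuclear scaling 14 higher and 9 lower (11.6% and 27.1%). Mitochondrially encoded transcripts held 24.3 to 24.9% of FPKM in iR_KOA_NE and 27.2 to 29.7% in KOA_NE libraries. Of complex V 7 of the 17 tested subunits were higher, of complex II 2 of 4, of complex III 3 of 9, of complex IV 2 of 13 and of complex I 4 of 36. SDHB had 85.4, 83.0 and 82.9 FPKM in iR_KOA_NE cells, against 68.1, 68.2 and 70.6 FPKM in KOA_NE cells, without overlap (0.28 ± 0.0457 SE, adjusted p = 3.74e-05). NDUFB6 had 88.9, 84.5 and 65.3 FPKM with iR, against 58.5, 58.5 and 61.1 FPKM without (0.40 ± 0.0941 SE, adjusted p = 0.00143), and its iR libraries were the more spread. UQCR11, a small subunit of complex III, was the 1 that fell, at -0.22 (adjusted p = 0.0162), a call that ended without iR_KOA_NE replicate 2 (0.0737). RSRP1 itself was higher in the knockout with iR, at 7.63, 7.95 and 7.45 FPKM, against 2.12, 2.70 and 2.46 FPKM without.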

How the data were processed

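RNA sequencing of 30 A549 libraries was deposited by the authors as 1 table of FPKM values per gene. Per the labels' protocols, poly(A) RNA was captured with oligo(dT) beads and sequenced paired-end. Tools listed in the submitters' processing notes are fastp, HISAT2 and HTSeq, with the GRCh38 build and no versions; the sources used here do not say whether counting used strand. The FPKM column of each library was used; 6 value columns that match no library here were left out. Recovered read totals per library were computed from the steps between low FPKM values, with 25991 of 25991 genes above 0 giving whole reads within 0.01.

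The 12086 genes (11150 protein-coding) that reached 1 FPKM in 3 or more libraries were fitted as log2(FPKM + 1) with limma 3.58.1 in R 4.3.3, with a mean-variance trend, all 10 groups in 1 fit and 20 residual degrees of freedom. Tests were two-sided, with Benjamini-Hochberg adjustment over all genes within each of 16 comparisons and a threshold of 0.05. A fold change on this scale understates the change of low genes. Alternatives were a pseudocount of 0.1, no filter, median-of-ratios, quantile and nuclear-gene scaling, fitting only the compared groups, a replicate block, and leaving out each library.

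Squared differences between replicates of a group were 2.49 to 13.5 times those of counting noise (30 pairs), more than repeated counts of 1 library would give. This does not show that the replicates came from separate cultures. Same-numbered libraries deviated together with correlations of -0.45 to 0.34 (median 0.015, 135 pairs), and different-numbered ones with -0.44 to 0.45 (median -0.011, 270 pairs). These values give no sign of pairing by number but cannot exclude a shared day or batch. Members, pathway lists and the rule for named genes were chosen with earlier results of these data known. The rule names, per comparison, up to 5 members past the threshold with the largest rise and up to 5 with the largest fall. For a difference of effects it names up to 5 in all. It also names the members past the threshold in all 5 exposure comparisons, and a set of subunits by role. NDUFB4, NDUFB10 in iR D3 and in the D3 comparison of iR_KOA, NDUFA10, UQCRH and UQCRHL were named after their values were seen. So was ATP5F1C for the knockout and for exposure in iR_KOA. The values of 1 subunit that the rule names are not reported here. Gene positions and promoters came from RefSeq and exon overlaps from GENCODE 29.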

Additional observations from a re-analysis of the deposited data

Results flagged for a closer look

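The effects below differed between groups by a direct test of the difference, the interaction term of the limma fit. The exposure effect in iR_KOA_D3 minus that in iR_KOA was 0.57 ± 0.136 SE, adjusted p = 0.0190 for NDUFB1, an accessory subunit of the complex I membrane arm, with exposure effects of 0.22 against -0.35. It was 0.42 ± 0.115 SE, adjusted p = 0.0368 for NDUFA3, another accessory subunit, with effects of 0.13 against -0.29. For ATP5MK of ATP synthase it was 0.31 ± 0.0851 SE, adjusted p = 0.0372, with effects of 0.16 against -0.15, and for ATP5MC3 0.26 ± 0.0725 SE, adjusted p = 0.0460, with effects of 0.030 against -0.23. The NDUFB1 call held without each of the 12 libraries in turn, and ended with no filter on low values (adjusted p = 0.0511) and when only the compared groups were fitted (0.123). The calls of NDUFA3, ATP5MK and ATP5MC3 ended in these 2 settings too, and without any 1 of 8, 7 and 8 of the 12 libraries, iR_KOA_EX replicate 2 among them. Those of ATP5MK and ATP5MC3 also ended under quantile normalization, and that of ATP5MC3 under nuclear scaling. ATP5IF1 had an exposure effect in iR_KOA minus that in KOA of -0.28 ± 0.0781 SE, adjusted p = 0.0360 (-0.23 against 0.047), a call that ended without any 1 of 7 of the 12 libraries, with no filter on low values, under nuclear scaling and when only the compared groups were fitted.

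The D3 effect in the knockout minus that in the wild type was tested in unexposed iR cells. It was positive for NDUFS7 (0.39 ± 0.118 SE, adjusted p = 0.0218), SDHA (0.21 ± 0.0588 SE, adjusted p = 0.0122), ATP5F1B (0.21 ± 0.0488 SE, adjusted p = 0.00291) and NDUFA10 (0.17 ± 0.0513 SE, adjusted p = 0.0218). It was negative for NDUFS5 (-0.34 ± 0.0996 SE, adjusted p = 0.0175) and ATP5IF1 (-0.29 ± 0.0781 SE, adjusted p = 0.0109). The D3 effects were -0.28 in the knockout and 0.061 in the wild type for NDUFS5, and 0.031 and -0.18 for SDHA.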

How the results depend on the processing

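Of 149 results of named members, 89 kept their direction and their side of the threshold under every alternative run, and 0 reversed. All 149 calls held with a pseudocount of 0.1. Depth limits the low members, such as NDUFA4L2 at 3 to 71 reads, and intervals of levels were not derived from it.

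The number of subunits past the threshold moved by more than 1.5 times in these cases. For exposure in iR_KOA (21) it was 13 with no filter on low values, 12 with median-of-ratios and 1 in a fit of its own groups. Fitting only the compared groups gave 19 for exposure in iR_KOA_D3 (8), 3 for exposure in iR_WTA (7) and 33 for iR in KOA (19). Median-of-ratios scaling gave 4 for exposure in iR_WTA and 12 for the difference of the D3 effect between genotypes (6). The difference of the exposure effect between iR_KOA and KOA (1) was 0 with no filter, with nuclear scaling and with only the compared groups; that between iR_KOA_D3 and iR_KOA (4) was 0 with no filter and with only the compared groups. Among these, fewer libraries in the fit and a larger set of genes tested belong to how the alternatives are built; otherwise the cause was not tested.

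Leaving out 1 library at a time gave 5 to 9 for exposure in iR_KOA_D3, 4 to 42 in iR_KOA, 4 to 6 in KOA, 4 to 7 in iR_WTA_D3 and 4 to 6 in iR_WTA. It gave 46 to 49 and 44 to 49 for the knockout in iR D3 and iR, 24 to 31 and 16 to 21 for D3 in iR_KOA and iR_WTA, and 15 to 21 for iR. For the differences it gave 0 to 6 between iR_KOA and KOA, 1 to 10 between iR_KOA_D3 and iR_KOA, 4 to 8 for D3 between genotypes, and 0 for the other 3. Counts moved by over 1.5 times without KOA_EX replicate 1 (4 in KOA), iR_KOA_D3_EX replicate 1 (5 in iR_KOA_D3), iR_WTA_EX replicate 3 (4 in iR_WTA), and iR_KOA_EX replicates 1, 2 and 3 and iR_KOA_NE replicate 3 (37, 4, 42 and 12 in iR_KOA). For the difference between iR_KOA and KOA it was 0 without KOA_EX replicate 1 or 2, KOA_NE replicate 1, 2 or 3, iR_KOA_EX replicate 2 or iR_KOA_NE replicate 1, 2 without iR_KOA_NE replicate 3 and 6 without iR_KOA_EX replicate 1. For that between iR_KOA_D3 and iR_KOA it was 1 without iR_KOA_D3_EX replicate 3, iR_KOA_D3_NE replicate 2, iR_KOA_EX replicate 2 or iR_KOA_NE replicate 1 or 2, 2 without iR_KOA_D3_EX replicate 1 or 2 or iR_KOA_D3_NE replicate 1, and 7 and 10 without iR_KOA_EX replicates 1 and 3. The 17 subunits whose 12 knockout and 12 wild-type iR libraries did not overlap became 29 without iR_KOA_EX replicate 2, an alternative chosen after seeing the data.

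The replicate block, which treats the replicate number as a shared factor although the correlations gave no sign of pairing by number, left all 149 named calls unchanged. With it the counts were 9, 22, 7, 6 and 7 for exposure in iR_KOA_D3, iR_KOA, KOA, iR_WTA_D3 and iR_WTA, 53 and 51 for the knockout in iR D3 and iR, 33 and 22 for D3, and 19 for iR.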
